A study of Homo sapiens with 4 samples.

Results

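Frizzled receptors, Wnt ligands and secreted Wnt inhibitors were examined in MCFDCIS cells, a breast cancer line of the basal subtype, treated with siRNA against Slug, a zinc finger transcription factor. The 10 genes were chosen by gene symbol: the Frizzled receptors FZD1, FZD2, FZD6, FZD7 and FZD8, the ligands WNT5A and WNT7B, and the secreted inhibitors DKK1, DKK3 and SFRP1. These 10 genes are among 20046 named by a single symbol on the array, and 17 of its 47323 probes read them. Cells were transfected with siRNA against Slug (2 arrays) or with a control siRNA (2 arrays), and RNA was taken 72 hours later. The labels call the arrays of a group biological replicates and do not say whether the cultures were separate in time, so the spread behind each p-value may be technical.

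Wnt proteins are secreted lipid-modified ligands that bind Frizzled receptors, seven-pass membrane proteins with a cysteine-rich extracellular domain. Together with the co-receptors LRP5 and LRP6 this stabilises beta-catenin, which acts with TCF and LEF factors on target genes, while other Wnt and Frizzled pairs act on cell polarity and the cytoskeleton without beta-catenin. Dickkopf proteins such as DKK1 block LRP5 and LRP6, and secreted Frizzled-related proteins such as SFRP1 bind Wnt ligands outside the cell. In the mammary gland the pathway is known for its part in basal and stem cell maintenance, and several EMT factors of the Snail family have been placed both upstream and downstream of it.

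All 4 arrays came from 1 chip, and 39.8% to 40.8% of probes on each had a detection p under 0.05, the share of negative controls at least as bright as the probe. SNAI2, the gene of Slug, stood at -0.44 and -0.37 on its 2 probes (log2, Slug siRNA minus control, limma adjusted p = 0.315 and 0.428). Both of its probes read lower on each Slug siRNA array than on either control array. Of the markers looked at, 4 of 5 epithelial and all 6 basal ones on the platform were above background on all 4 arrays, among them EPCAM, CDH1 and KRT5. Detection of these markers does not establish the line or its subtype. Of 12 fibroblast, endothelial and immune markers, 3 were kept (PECAM1, CD68 and COL1A1) and the other 9, COL1A2, COL3A1, DCN, LUM, PDGFRB, VWF, CDH5, PTPRC and CD3E, were above background on no array. The kept 3 summed to 580.2 and 390.0 normalized intensity units with Slug siRNA, against 778 and 636 with control siRNA. PECAM1, the brightest of the 3, stood at a log2 fold change of -0.78 (limma adjusted p = 0.280). CD68 stood at -0.22 (0.03 within replicate 1 and -0.48 within replicate 2) and COL1A1 at 0.09. The sum therefore does not show a fall shared by the 3. The 4 epithelial markers summed to 15843 and 17229 units with Slug siRNA, against 10932 and 11207 with control siRNA, with KRT8 at a log2 fold change of 0.99 (adjusted p = 0.092). The part of either list in the results on Wnt genes was not tested.

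All 5 Frizzled genes were above background on all 4 arrays, and the ligand WNT5A on none. In all, 8 of the 10 genes had a probe with a detection p under 0.05 on at least 2 arrays and were tested, through 10 such probes. WNT5A, DKK3, a second probe of WNT7B and a second probe of DKK1 made up the other 7 probes, and 5 of these were above background on no array. None of the 8 tested genes passed the limma adjusted threshold of 0.05, which 0.116% of all 11200 genes passed (13 genes). At an unadjusted p under 0.05, WNT7B was higher with Slug siRNA, as were 6.18% of all genes, and FZD2 and FZD7 were lower, as were 6.87%. On the normalized scale the groups did not overlap for 1 gene in the higher direction, WNT7B (23.6% of all genes), and for 3 in the lower direction, FZD2, FZD7 and FZD8 (21.5%). WNT7B was above background on both Slug siRNA arrays but on only 1 control array. It thus met the filter through the group where it was higher, so its p and its lack of overlap carry little weight. The median log2 fold change was -0.08 over the 8 genes and 0.01 over all 11200, and the median absolute value was 0.38 against 0.17. In absolute size, 0.38 is the midpoint between SFRP1 (-0.18) and WNT7B (0.58). It thus rests in part on WNT7B and carries little weight either.

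**Figure D1:**
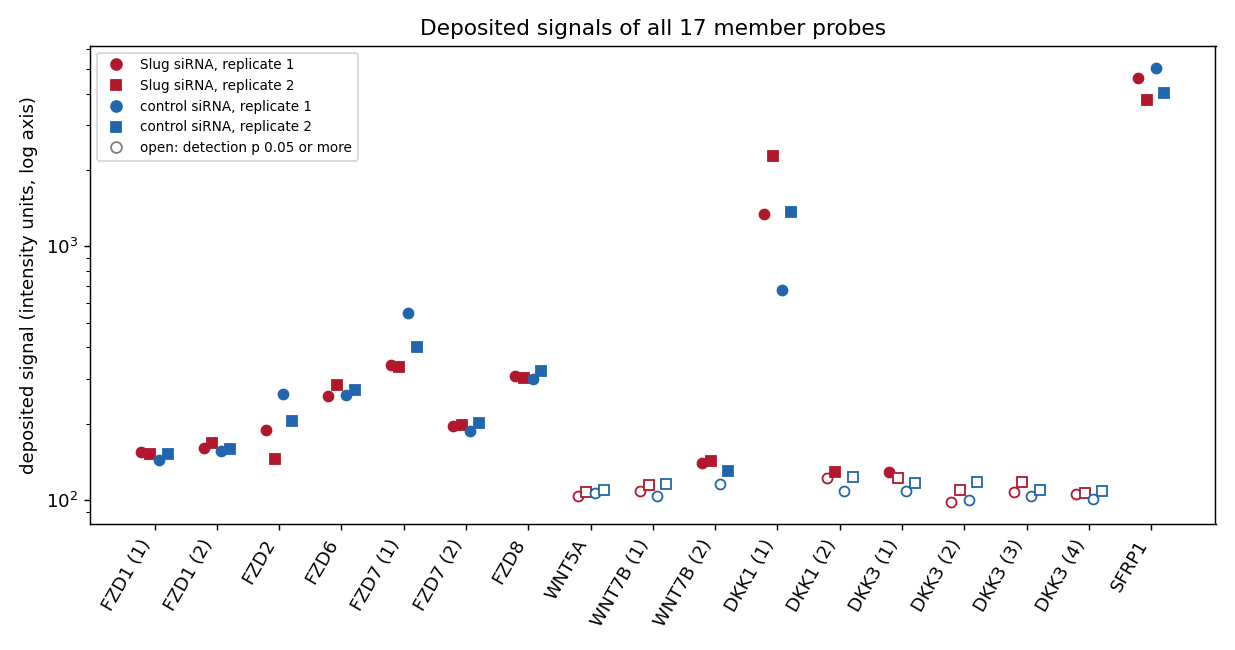
Deposited signals, in intensity units on a log axis, of the 17 probes of the 10 genes on each array, with Slug siRNA in red and control siRNA in blue, circles for replicate 1 and squares for replicate 2. Open symbols mark a detection p of 0.05 or more, and the WNT5A probe and 3 of the 4 DKK3 probes are open on all 4 arrays.

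FZD2 had the lowest log2 fold change of the receptors over all 4 arrays, and lay above FZD7 without Slug siRNA replicate 2. It encodes a Frizzled receptor for WNT5A and other ligands, and its RNA has been tied to mesenchymal states in other carcinoma lines. Its probe read 190 and 146 intensity units with Slug siRNA (replicates 1 and 2), against 263 and 205 units with control siRNA. Both Slug siRNA arrays lay below both control arrays, and replicate 2 was the dimmer one in each group. In RNA of a whole culture, fewer cells with the transcript and less of it per cell cannot be told apart. After background correction and quantile normalization the log2 intensities were 6.49 and 5.55 with Slug siRNA and 7.41 and 6.82 with control siRNA. The log2 fold change was -1.10 (SE 0.33, limma 95% interval -1.88 to -0.31), and the control level was 2.14 times the Slug siRNA level. The adjusted p was 0.254 and the unadjusted limma p 0.013, and 60 of 11200 genes, itself included, lay that low or lower. The value was -0.92 within replicate 1 and -1.28 within replicate 2. Without background correction it was -0.53, and without Slug siRNA replicate 2 it was -0.62, each over 1.5 times nearer to 0.

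FZD7, a receptor active in mammary basal and stem cells, was read by 2 probes that did not move alike. The brighter probe read 341 and 335 units with Slug siRNA, against 545 and 402 units with control siRNA. The 2 Slug siRNA arrays nearly coincided and lay below both control arrays, of which replicate 1 was the higher. This probe had a log2 fold change of -0.69 (SE 0.22, 95% interval -1.20 to -0.18, limma adjusted p = 0.265). Its dimmer probe read 196 and 198 units with Slug siRNA, against 188 and 202 units with control siRNA. There the groups overlapped, and the log2 fold change was -0.08 (SE 0.17, 95% interval -0.47 to 0.31, limma adjusted p = 0.902). With the mean over both probes the value for FZD7 was -0.39, and without control siRNA replicate 1 that of the brighter probe was -0.41.

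The other 3 receptors differed little between the groups. FZD8 read 310 and 303 units with Slug siRNA, against 300.0 and 323 units with control siRNA. These signals overlapped, although after normalization both Slug siRNA arrays lay just below both control arrays, and the log2 fold change was -0.12 (95% interval -0.50 to 0.27, limma adjusted p = 0.839). FZD6, a receptor known from mice for its part in planar polarity of hair and skin, read 257 and 285 units with Slug siRNA, against 259 and 271 units with control siRNA. Its arrays overlapped, with a log2 fold change of -0.05 (95% interval -0.44 to 0.35, limma adjusted p = 0.955) that changed sign under other settings. FZD1 had 2 probes, and the brighter one read 161 and 168 units with Slug siRNA, against 156 and 159 units with control siRNA. The probes gave log2 fold changes of 0.06 and 0.04 (adjusted p = 0.935 and 0.957), the first with a 95% interval of -0.32 to 0.44. For FZD1, FZD6 and FZD8 the intervals held no change as large as 2-fold in either direction.

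WNT7B was the only ligand of the 2 that could be tested. It encodes a Wnt protein of branching epithelia that acts through beta-catenin in many settings. Its brighter probe read 141 and 143 units with Slug siRNA, against 116 and 130 units with control siRNA. Both Slug siRNA arrays were above background, as was control siRNA replicate 2, while control siRNA replicate 1 was not, with 0.194 of the negative controls at least as bright as the probe. The log2 fold change was 0.58 (SE 0.20, 95% interval 0.11 to 1.05, limma adjusted p = 0.295), with 0.80 within replicate 1 and 0.36 within replicate 2. The value was 0.17 without background correction, 0.29 with a larger offset of 50, and 0.35 without control siRNA replicate 1. The second WNT7B probe read 109 and 115 units with Slug siRNA, against 104 and 116 units with control siRNA, and was above background on no array.

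WNT5A, a ligand known mainly for signalling without beta-catenin, was above background on no array. Its single probe read 104 and 108 units with Slug siRNA, against 107 and 109 units with control siRNA, with 0.566 to 0.875 of the negative controls at least as bright. These values lay among the negative controls, so no fold change is given. Of the 10 genes, RefSeq (GRCh38.p14) promoter windows were examined only for WNT5A (2 starts), DKK1, FZD1 and FZD8. No window was at hand for FZD2, FZD7, WNT7B and DKK3, and the remaining members were left out. Slug binds E-boxes, in particular the one spelled CAGGTG. The 250 bases before each start were searched on both strands for these letters and for the wider E-box CANNTG, which includes them. The upstream WNT5A window at chr3:55487307-55487556, minus strand, is shown because it held the only CAGGTG match among these windows, in capitals, on the opposite strand.
WNT5A: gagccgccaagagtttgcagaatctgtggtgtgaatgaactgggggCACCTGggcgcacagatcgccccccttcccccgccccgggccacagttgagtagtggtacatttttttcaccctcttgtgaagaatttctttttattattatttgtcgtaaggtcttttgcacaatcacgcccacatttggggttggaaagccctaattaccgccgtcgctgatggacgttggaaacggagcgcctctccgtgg
The match began 204 bases before the start. Of 35116 windows of the same length in the table, 17.5% held CAGGTG and 61.8% held CANNTG. The second WNT5A window held 2 CANNTG matches, and the FZD1, FZD8 and DKK1 windows held no match to either. A match is a description of letters and does not show binding.

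DKK1 had the highest log2 fold change of the 8 tested genes over all 4 arrays, and lay below WNT7B without control siRNA replicate 1 or without Slug siRNA replicate 2. Its protein is a secreted antagonist of LRP5 and LRP6, and the gene is itself a target of beta-catenin with TCF. Its brighter probe read 1338 and 2272 units with Slug siRNA, against 673 and 1370 units with control siRNA. Replicate 2 was the brighter one in each group, and Slug siRNA replicate 1 lay just under control siRNA replicate 2, so the groups overlapped. The log2 intensities were 10.29 and 11.04 with Slug siRNA and 9.20 and 10.34 with control siRNA. The log2 fold change was 0.90 (SE 0.39, 95% interval -0.03 to 1.82, limma adjusted p = 0.411), and 97 of 11200 genes, itself included, lay that high or higher. The difference was 1.09 within replicate 1 and 0.70 within replicate 2, while replicate 2 exceeded replicate 1 by 0.75 with Slug siRNA and by 1.14 with control siRNA. The spread between replicates was thus of the same size as the difference between groups, and leaving out an array moved DKK1 to 0.33 (control siRNA replicate 1), 0.52 (Slug siRNA replicate 2) or 1.46 (control siRNA replicate 2). The second DKK1 probe read 122 and 130 units with Slug siRNA, against 109 and 124 units with control siRNA, and was above background only on Slug siRNA replicate 2.

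The 250 bases before the DKK1 start, at chr10:52314031-52314280, plus strand, are shown because the gene is a known TCF target with the largest positive value over all 4 arrays. Capitals mark the 2 matches to CTTTGA, 1 on each strand, part of the motif bound by TCF and LEF factors.
DKK1: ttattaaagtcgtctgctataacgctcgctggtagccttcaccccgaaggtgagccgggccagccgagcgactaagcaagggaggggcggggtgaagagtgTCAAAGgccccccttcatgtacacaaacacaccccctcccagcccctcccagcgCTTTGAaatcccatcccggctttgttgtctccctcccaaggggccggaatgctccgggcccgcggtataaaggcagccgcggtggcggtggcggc
The matches began 149 and 95 bases before the start. CTTTGA was present in 11.2% of the 35116 windows and in none of the WNT5A, FZD1 and FZD8 windows.

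SFRP1, the inhibitor that binds Wnt ligands, and DKK3, a divergent Dickkopf protein, stood at opposite ends of detection. The SFRP1 probe read 4606 and 3760 units with Slug siRNA, against 5057 and 4015 units with control siRNA. Replicate 1 was the brighter one in both groups and the groups overlapped. The log2 fold change was -0.18 (SE 0.20, 95% interval -0.65 to 0.28, limma adjusted p = 0.783), with -0.16 within replicate 1 and -0.21 within replicate 2. Leaving out an array moved it to -0.01 (Slug siRNA replicate 2), -0.03 (control siRNA replicate 1), -0.36 (Slug siRNA replicate 1) or -0.34 (control siRNA replicate 2). DKK3 was read by 4 probes, of which 3 were above background on no array. The fourth read 130 and 123 units with Slug siRNA, against 109 and 117 units with control siRNA, and had a detection p under 0.05 only on Slug siRNA replicate 1 (0.029). The other 3 DKK3 probes lay between 98.4 and 118 units with either siRNA, and no fold change is given for the gene.

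**Figure D2:**
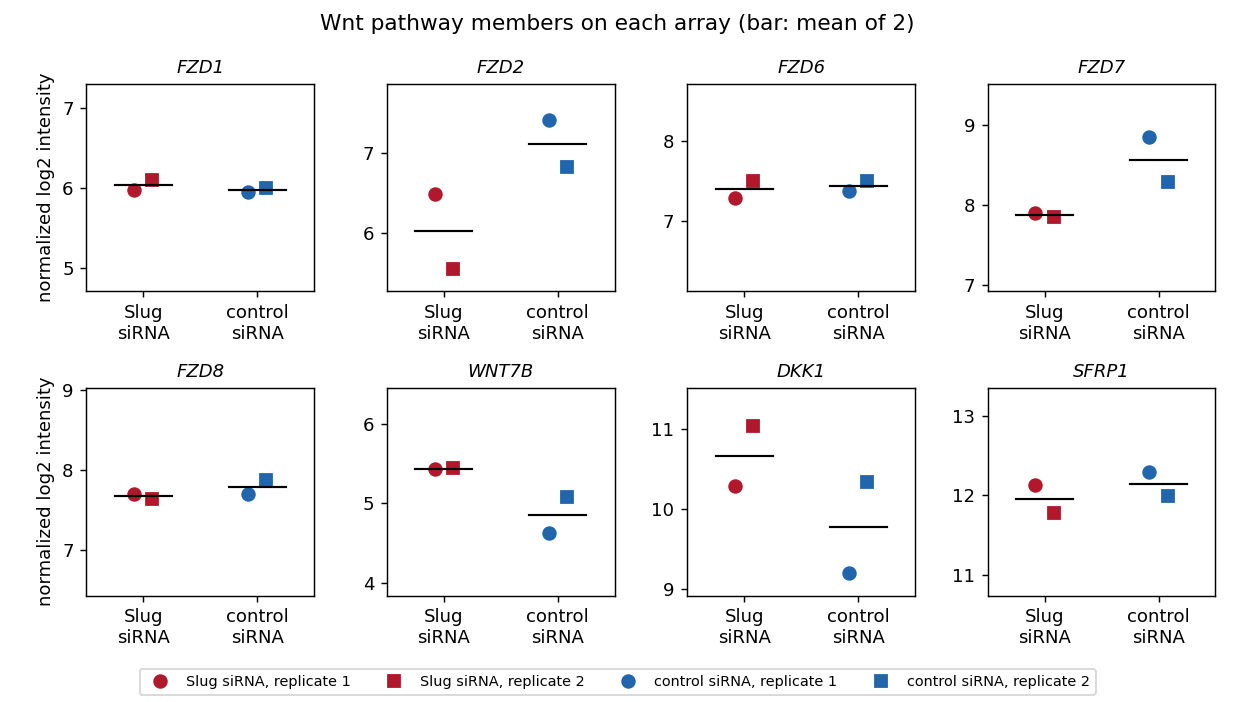
Normalized log2 intensity of the 8 tested genes on each array, each panel spanning the same height on the log2 scale, with Slug siRNA on the left, control siRNA on the right and a bar at the mean of 2. FZD2 and FZD7 lie lower and WNT7B higher on both Slug siRNA arrays, and in DKK1 the replicates of a group lie about as far apart as the groups.

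**Figure D3:**
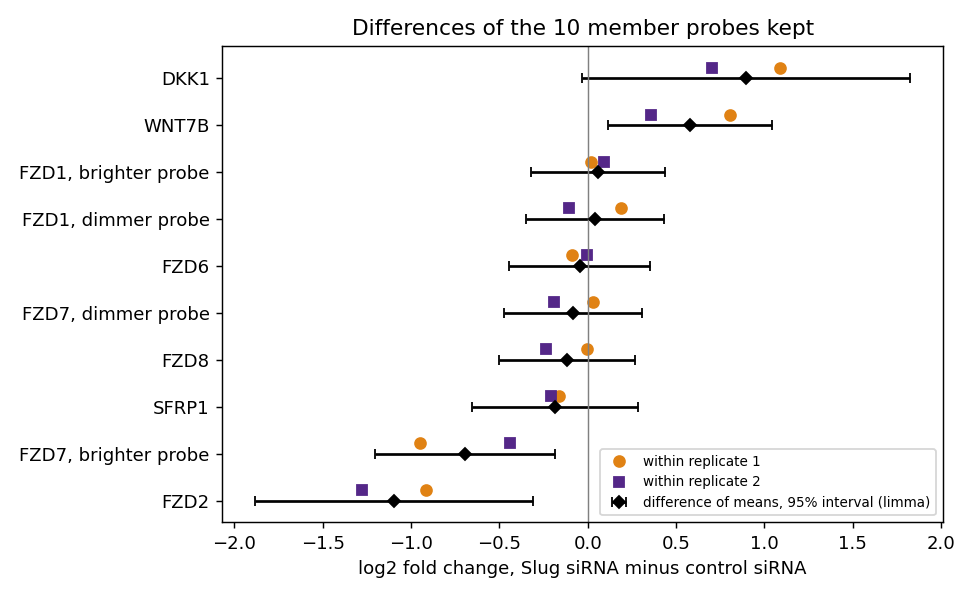
Log2 fold change, Slug siRNA minus control siRNA, of the 10 tested probes (diamonds, with limma's 95% interval), and the difference within replicate 1 (circles) and within replicate 2 (squares). The intervals of FZD2, the brighter FZD7 probe and WNT7B leave out 0 before any adjustment, and the 2 FZD7 probes lie at -0.69 and -0.08.

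On the probe that stands for the gene, all 8 tested genes had the same sign of difference within replicate 1 as within replicate 2, as did 67.0% of all 11200 genes. The difference was only -0.0034 for FZD8 within replicate 1 and -0.0032 for FZD6 within replicate 2. The shared sign of these genes therefore carries little weight. Of the 10 tested probes 8 had the same sign within both, and the dimmer probes of FZD1 (0.19 and -0.11) and FZD7 (0.03 and -0.19) did not. Genes with array patterns most like the members at either end were found by the root mean square distance of centred log2 values over the 4 arrays. For DKK1 the nearest were ISG15 (0.07), RBL1 (0.10) and E2F2 (0.13), with log2 fold changes of 0.84, 0.76 and 0.71. For FZD2 they were TGFBR3 (0.09), TNFRSF6B (0.10) and LINC02035 (0.12), with log2 fold changes of -0.92, -1.25 and -1.24. None of these 6 passed the threshold (adjusted p of 0.154 to 0.558), and 4 arrays cannot rank likeness closely.

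The rest of the pathway was described with 8 lists, and no gene of any list passed the limma adjusted threshold, against 0.116% of all genes. Most other ligands were not measurable: of 17 other Wnt genes, 2 were kept, WNT3 at -0.41 (adjusted p = 0.418) and WNT10B at 0.26 (adjusted p = 0.816). Of 5 other Frizzled genes 3 were kept, FZD3, FZD4 and FZD5, with values between 0.07 and 0.12 (adjusted p of 0.846 to 0.957). Of 13 other secreted inhibitors 2 were kept, SOSTDC1 (0.33, adjusted p = 0.566) and DKKL1 (-0.01, adjusted p = 0.989), while SFRP2, SFRP4, SFRP5, FRZB, WIF1 and DKK2 were above background on no array.

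Among 20 co-receptors and surface regulators 14 were kept, with a median log2 fold change of -0.15 and 9 negative, where 5416 of all 11200 genes were negative. Of the 14, 2 had an unadjusted p under 0.05, both lower, as were 6.87% of all genes. SDC1, the heparan sulfate proteoglycan syndecan-1, which binds Wnt ligands, read 3942 and 3410 units with Slug siRNA, against 6384 and 5788 units with control siRNA. Both Slug siRNA arrays lay well below both control arrays (log2 difference -0.81, SE 0.17, limma adjusted p = 0.128). Without background correction the SDC1 probe stood at -0.79 and passed (adjusted p = 0.035). Its dim second probe gave 0.28. KREMEN2, a receptor that works with DKK1 to remove LRP6 from the surface, had -0.60 on its brighter probe (adjusted p = 0.347) and -0.71 on the other (adjusted p = 0.154). That other probe read 111 and 115 units with Slug siRNA, against 132 and 129 units with control siRNA. It was not above background on either Slug siRNA array and was kept through the control arrays only. LRP5 and LRP6 stood at -0.29 and -0.22 (adjusted p = 0.688 and 0.800). At the upper end were GPC4, a glypican (0.33, adjusted p = 0.570), and RSPO2, a secreted enhancer of Wnt signalling (0.21, adjusted p = 0.775).

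Of the 7 genes of ligand processing and secretion 5 were kept, with a median of 0.10. TRABD2A, a membrane protease that inactivates Wnt ligands, read 136 and 132 units with Slug siRNA, against 156 and 153 units with control siRNA. It did not overlap between groups, like 21.5% of all genes in this direction, and stood at -0.74 (adjusted p = 0.149). WLS, the carrier that brings Wnt ligands to the surface, and the retromer subunits VPS26A, VPS29 and VPS35, which recycle it, had values between 0.02 and 0.28 (adjusted p of 0.600 to 0.978).

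Of 30 canonical signal transduction genes 19 were kept, with a median of -0.06 and 12 negative. Of the 19, 2 had an unadjusted p under 0.05, both lower, as were 6.87% of all genes. LEF1, the DNA-binding partner of beta-catenin, had 2 probes with near equal values. The brighter read 137 and 149 units with Slug siRNA, against 184 and 161 units with control siRNA, a log2 difference of -0.80 (adjusted p = 0.199), and the other gave -0.82 (adjusted p = 0.113). Neither probe overlapped between groups, and with 1 probe per gene 21.5% of all genes did not overlap in this direction. PYGO2, a co-activator of beta-catenin, stood at -0.50 (adjusted p = 0.285). It read 129 and 127 units with Slug siRNA, against 138 and 137 units with control siRNA, and was not above background on Slug siRNA replicate 2. FRAT2, an inhibitor of GSK3, and BCL9L, a beta-catenin cofactor, stood at 0.24 and 0.22 (adjusted p = 0.653 and 0.645). CTNNB1, the gene of beta-catenin itself, stood at -0.09 (adjusted p = 0.911) on its brighter probe and -0.29 (adjusted p = 0.646) on the other, and the groups overlapped on both.

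Beta-catenin targets did not share a direction. AXIN2, the negative feedback gene most often used to read the pathway, was above background on 1 array at most, and NKD1, NKD2 and SP5 on none, so these genes could not be read. ZNRF3 and RNF43, listed above among the surface regulators, were kept, at -0.19 and -0.10 (adjusted p = 0.712 and 0.888). Of the 15 listed targets 10 were kept, 6 negative and 4 positive, with a median of -0.10. At an unadjusted p under 0.05, 4 of the 10 were higher (ID2, PLAUR, CCND1 and NRCAM), as were 6.18% of all genes, and 1 was lower (MMP7), as were 6.87%. MMP7, a matrix metalloproteinase, read 286 and 221 units with Slug siRNA, against 438 and 344 units with control siRNA, a log2 difference of -0.99 (adjusted p = 0.194), with -0.86 from its second probe. TNFRSF19 stood at -0.46 (adjusted p = 0.707). ID2, an inhibitor of basic helix-loop-helix factors, stood at 0.76 (adjusted p = 0.377), and PLAUR, the urokinase receptor, at 0.63 (adjusted p = 0.186). PLAUR read 922 and 914 units with Slug siRNA, against 623 and 583 units with control siRNA, and its other probes gave 0.42 and 0.49. Without background correction it stood at 0.55 and passed (adjusted p = 0.049). The cyclin gene CCND1 and the adhesion gene NRCAM, at 0.42 and 0.45, also lay higher on both Slug siRNA arrays. The other NRCAM probe gave 0.26 (limma adjusted p = 0.696) with overlapping groups, -0.14 within replicate 1 and 0.65 within replicate 2. Both NRCAM probes were dim. Many of the listed genes are targets of other pathways as well.

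Of 24 planar polarity and non-canonical genes 17 were kept, with a median of -0.13 and 11 negative. Of these, 3 had an unadjusted p under 0.05 (PRICKLE2, CELSR2 and DAAM1), all lower, as were 6.87% of all genes. DAAM1 stood at -0.42, and its dimmer probe at 0.08 with overlapping groups. In 7 genes both Slug siRNA arrays lay below both control arrays, as in 21.5% of all genes. RAC1, 1 of the 7, stood at -0.16, but its dimmer probe gave 0.30 and lay higher on both Slug siRNA arrays. For MAPK9, another of them, the dimmer probe (-0.64) lay lower, as did the brighter one (-0.22). Only 15 of the 17 genes had a probe above background on all 4 arrays. PRICKLE3, 1 of the 7, was not above background on either Slug siRNA array and was kept through the control arrays only. PRICKLE2, a cytoplasmic polarity protein, read 250.3 and 222 units with Slug siRNA, against 343 and 281 units with control siRNA, a log2 fold change of -0.71 (adjusted p = 0.237). CELSR2, an atypical cadherin of the polarity system, stood at -0.68 (adjusted p = 0.300). At the upper end were SCRIB (0.21, adjusted p = 0.714) and CAMK2D, a calcium-dependent kinase (0.19, adjusted p = 0.707). The other CAMK2D probes gave 0.28 and 0.45 (adjusted p = 0.578 and 0.303), the latter from a dim probe. That dim probe was not above background on either control array. It was kept through the Slug siRNA arrays only, where it was higher, so its value carries little weight.

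**Figure D4:**
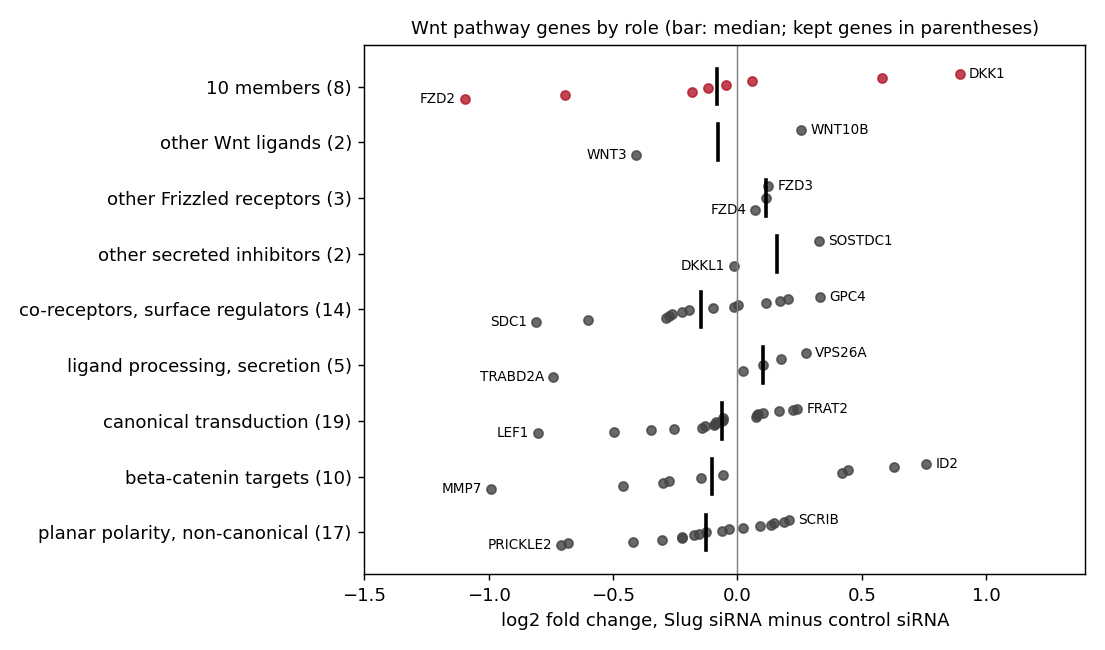
Log2 fold change, Slug siRNA minus control siRNA, of each kept gene of the 10 members (red) and of 8 lists of Wnt pathway genes (grey), with the median of each row as a bar and the genes at either end named. Values lie between -1.10 (FZD2) and 0.90 (DKK1), and the row medians between -0.15 and 0.16.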

How the data were processed

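The authors deposited mean bead intensities per probe, which the file headers call signal, with a detection p-value for each probe and array, the bead standard error and the number of beads. Per the file name these intensities were not normalized. Median bead numbers were 20 to 21 per probe. The authors' own normalized intensities, made by a method not given in the sources used here, were used as an alternative with 16 added before log2. The bead values came with 8 further columns of per-sample values, which were not used.

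From the intensities, background was corrected in R 4.3.3 with limma 3.58.1 by the normal-exponential model, with negative control values inferred from the detection p-values and an offset of 16. Arrays were then quantile normalized and put on a log2 scale, on which fold changes of dim probes are understated. Probes were kept at a detection p under 0.05 on at least 2 arrays (19446 of 47323). Symbols came from the platform annotation, which named 1 gene for 30113 probes, and the kept probe with the highest mean stood for a gene. Groups were compared two-sided with lmFit and eBayes and Benjamini-Hochberg adjustment over all kept probes, with group as the only term. An exact permutation test on a single gene cannot go below p = 0.333 with 2 against 2 arrays. The number of arrays limits the precision.

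Members and lists were chosen with earlier results of these data known. The text names all 10 members, SNAI2, the 2 highest and 2 lowest kept genes of each list, and the 3 nearest patterns. Other genes named were added after their values were seen. These were LRP5, LRP6, CTNNB1, CCND1, NRCAM, VPS35, ZNRF3, RNF43, DAAM1, PRICKLE3, RAC1, MAPK9, and genes not above background. The test was tried on simulated data. Figures were drawn with matplotlib 3.10.9.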

Additional observations from a re-analysis of the deposited data

How the results depend on the processing

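No member passed the limma adjusted threshold under any alternative run, with the exception of FZD2 and DKK1 when the replicate number was a term. With this replicate block, on 1 residual degree of freedom, the log2 fold changes were unchanged at -1.10 for FZD2 and 0.90 for DKK1, and the adjusted p was 0.023 and 0.039. Nothing in the labels says that equal numbers mean a shared day, the deviations of same-numbered arrays from their group means correlated at 0.36 across probes, and 2 pairs are too few to settle a pairing. The count over all genes, 13, was 356 with the block, 158 without background correction, 217 with an offset of 50, 34 with median scaling, 3 with the authors' normalized intensities, 0 with no filter, and 52 and 124 with detection p under 0.01 on 2 and on all 4 arrays. With 1 array left out it ranged from 3 (without control siRNA replicate 1) to 20 (without control siRNA replicate 2). The count over the pathway lists, 0, was 5 with the block (SDC1, ID2, MMP7, PRICKLE2 and TRABD2A), 2 without background correction (SDC1 and PLAUR) and 1 with an offset of 50 (SDC1). FZD6 changed sign with median scaling (0.0063) and ranged from -0.15 to 0.060 with 1 array left out (0.018 without control siRNA replicate 2). FZD1 ranged there from -0.0053 to 0.12. The cause of these changes was not tested. The other 6 tested genes kept their sign under every alternative that gave a value, and WNT7B has none with detection on all 4 arrays. Over these alternatives without left-out arrays FZD2 lay between -1.10 and -0.53, FZD7 between -0.69 and -0.39, WNT7B between 0.17 and 0.64 and DKK1 between 0.82 and 0.91. With 1 array left out the ranges were -1.57 to -0.62 for FZD2, -0.98 to -0.41 for FZD7, 0.35 to 0.81 for WNT7B and 0.33 to 1.46 for DKK1. When a group keeps 1 array, that array is assumed to vary like those of the other group. WNT5A and DKK3, at the level of the negative controls, have no usable value here.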
